A study of Mus musculus with 3 samples.

Results

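The tumour necrosis factor (TNF) superfamily of ligands and the matching superfamily of receptors were read in the transcriptome of sorted mouse leptomeningeal cells. Members were chosen by gene symbol: every gene of the count table named as a Tnfsf or Tnfrsf gene, plus Tnf, Lta, Ltb, Ltbr, Fas, Fasl, Eda, Edar, Cd40 and Cd27. The rule found 42 of 46983 genes, of which 16 encode ligands and 25 receptors. The remaining member, Tnfsf13os, is a non-coding RNA transcribed opposite Tnfsf13. The study consisted of 3 RNA-seq libraries of 1 group, a pia enriched fraction of vehicle-treated mice, so no treated arm, genotype or time could be compared. The leptomeninges, the inner membranes around the brain, were dissected, dissociated and sorted by flow cytometry. The labels do not state the sorting markers, the vehicle, the strain, age or sex of the mice, or whether each library came from a separate animal. The p-values below therefore measure only the spread between these samples, which may be technical.

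Ligands of this superfamily are mostly trimeric proteins of the cell surface, many of which can be shed as soluble factors. Their receptors fall into a class with an intracellular death domain, which can recruit caspase-activating adaptors, a class that binds TRAF adaptors and feeds into NF-kB signalling, and decoys that bind ligand without a full signal. Fibroblasts are known to carry the broadly expressed receptors for TNF, lymphotoxin and TWEAK, whereas many of the costimulatory members belong to lymphocytes and myeloid cells.

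The libraries held 21002860, 28704952 and 25338616 counts assigned to genes, of which 17576, 20527 and 25626 fell on members (0.0837%, 0.0715% and 0.101%). Levels are given as counts per 1000000 gene counts (CPM), scaled between libraries, and levels of different members were compared only as CPM per kilobase of exon. The 6 fibroblast markers, led by Col1a2 and Col1a1, summed to 23467, 29100 and 25292 CPM in libraries 1, 2 and 3. Library 1 stood apart from the others in its macrophage and microglia, B cell and choroid plexus markers. Macrophage and microglia markers (C1qb and C1qc the most abundant) summed to 12.6, 200.1 and 531 CPM. B cell markers (Cd79a and Cd79b) summed to 2.53, 72.3 and 75.7 CPM, and choroid plexus markers (Ttr and Enpp2) to 97.6, 3193 and 4877 CPM. Mural markers (Acta2 and Tagln) summed to 2765, 2427 and 4673 CPM. Endothelial (Cdh5 and Egfl7), arachnoid barrier (Cldn11 and Krt19) and neutrophil (Camp and S100a9) markers stayed below 100 CPM in sum in every library. Markers of T and NK cells (Trac and Cd4) summed to 5.20, 4.03 and 5.55 CPM, with Ncr1 at 0 in every library.

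Windows of 250 bases before the transcription start were read for 33 of the 42 members from the RefSeq promoter table of GRCm38.p6. They numbered 37, because Tnfrsf9, Tnfrsf19, Tnfrsf25 and Tnfsf13b have an additional start. The windows of the 3 receptors with the highest mean levels per kilobase are shown with those of Fas, a death receptor, and of Tnf, the ligand of Tnfrsf1a, so that their start regions can be set side by side. Each is printed 5′ to 3′ on the gene's own strand, without bases that are exonic in GENCODE M21. The intervals are chr6:125349509-125349722 (plus strand), chr17:23677469-23677699 (minus), chr6:125313886-125314135 (minus), chr19:34290409-34290658 (plus) and chr17:35202008-35202257 (minus). The Tnfrsf1a stretch lies inside the gene as GENCODE draws it, since GENCODE also places a start further upstream. Capitals mark matches, on either strand, to the TATA box (TATAAA), the GC box (GGGCGG) or the AP-1 motif (TGANTCA).
Tnfrsf1a: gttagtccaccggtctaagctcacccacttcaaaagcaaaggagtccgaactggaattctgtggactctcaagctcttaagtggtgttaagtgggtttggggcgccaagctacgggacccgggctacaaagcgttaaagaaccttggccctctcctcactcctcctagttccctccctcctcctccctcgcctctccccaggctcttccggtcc
Tnfrsf12a: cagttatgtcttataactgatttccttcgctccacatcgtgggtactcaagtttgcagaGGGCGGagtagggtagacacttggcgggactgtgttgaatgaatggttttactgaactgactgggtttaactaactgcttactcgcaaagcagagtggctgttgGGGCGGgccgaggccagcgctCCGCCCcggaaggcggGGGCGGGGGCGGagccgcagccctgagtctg
Ltbr: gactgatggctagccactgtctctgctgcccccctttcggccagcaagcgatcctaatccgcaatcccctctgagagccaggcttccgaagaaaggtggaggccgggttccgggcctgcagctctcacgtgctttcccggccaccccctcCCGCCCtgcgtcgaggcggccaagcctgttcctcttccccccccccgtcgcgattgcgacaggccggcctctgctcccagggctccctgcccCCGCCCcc
Fas: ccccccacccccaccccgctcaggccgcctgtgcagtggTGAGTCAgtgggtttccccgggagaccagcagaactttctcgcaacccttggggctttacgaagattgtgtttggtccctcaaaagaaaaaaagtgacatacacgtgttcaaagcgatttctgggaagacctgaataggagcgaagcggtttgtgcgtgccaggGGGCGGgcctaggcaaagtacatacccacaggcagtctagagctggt
Tnf: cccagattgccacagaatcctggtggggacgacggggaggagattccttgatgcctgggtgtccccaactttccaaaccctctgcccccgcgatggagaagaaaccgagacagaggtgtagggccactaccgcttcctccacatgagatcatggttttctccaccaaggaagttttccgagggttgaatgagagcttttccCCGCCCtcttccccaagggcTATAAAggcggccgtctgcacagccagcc

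The Tnf window held a TATAAA match that began 29 bases before the start and a GC box at 49 bases. Tnfrsf12a held 5 GC boxes, at 191, 87, 66, 50 and 44 bases, the last pair lying end to end. Ltbr held GC boxes at 100 and 8 bases, and Fas held a GC box at 47 bases and an AP-1 match at 211 bases. The Tnfrsf1a window had none of these letters. Over the members, TATAAA was found in 6 of 37 windows (6 of 33 genes), beside 12.4% of all 32851 windows of that length. The GC box was in 16 of 37 windows (16 of 33 genes), beside 32.7%. The AP-1 motif was in 6 of 37 windows (6 of 33 genes), beside 6.75% of all windows. The NF-kB consensus motif was in 3 of 37 windows, those of Ltb, Tnfrsf8 and Tnfrsf9, beside 3.9%. Matches on both strands were counted, overlapping ones included. Of the 8 members with a window and a mean of at least 10 CPM, 6 had a GC box, 2 an AP-1 match and 0 a TATAAA or NF-kB match. A match describes letters in this window and is not a bound site.

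Most of the family was present at low levels, and a small number of receptors carried most of its transcripts. At least 1 count was found for 39 of the 42 members, while 3 had none, beside 21.3% of protein-coding genes and 46.6% of all genes. Of the 42, 22 passed the filter on low counts, beside 60.4% of protein-coding genes and 30.7% of all genes in the table. A mean of at least 1 CPM was reached by 24 members, that is 17 of 25 receptors, 6 of 16 ligands and Tnfsf13os. The same level was reached by 60.7% of protein-coding genes and 30.2% of all genes, so the share of members was close to that of protein-coding genes. At least 10 CPM was reached by 12 members, beside 41.3% of protein-coding genes and 19.2% of all genes. Tnfrsf1a and Tnfrsf12a reached at least 100 CPM, beside 1822 of 21560 protein-coding genes and 1832 of all 46983 genes.

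**Figure D1:**
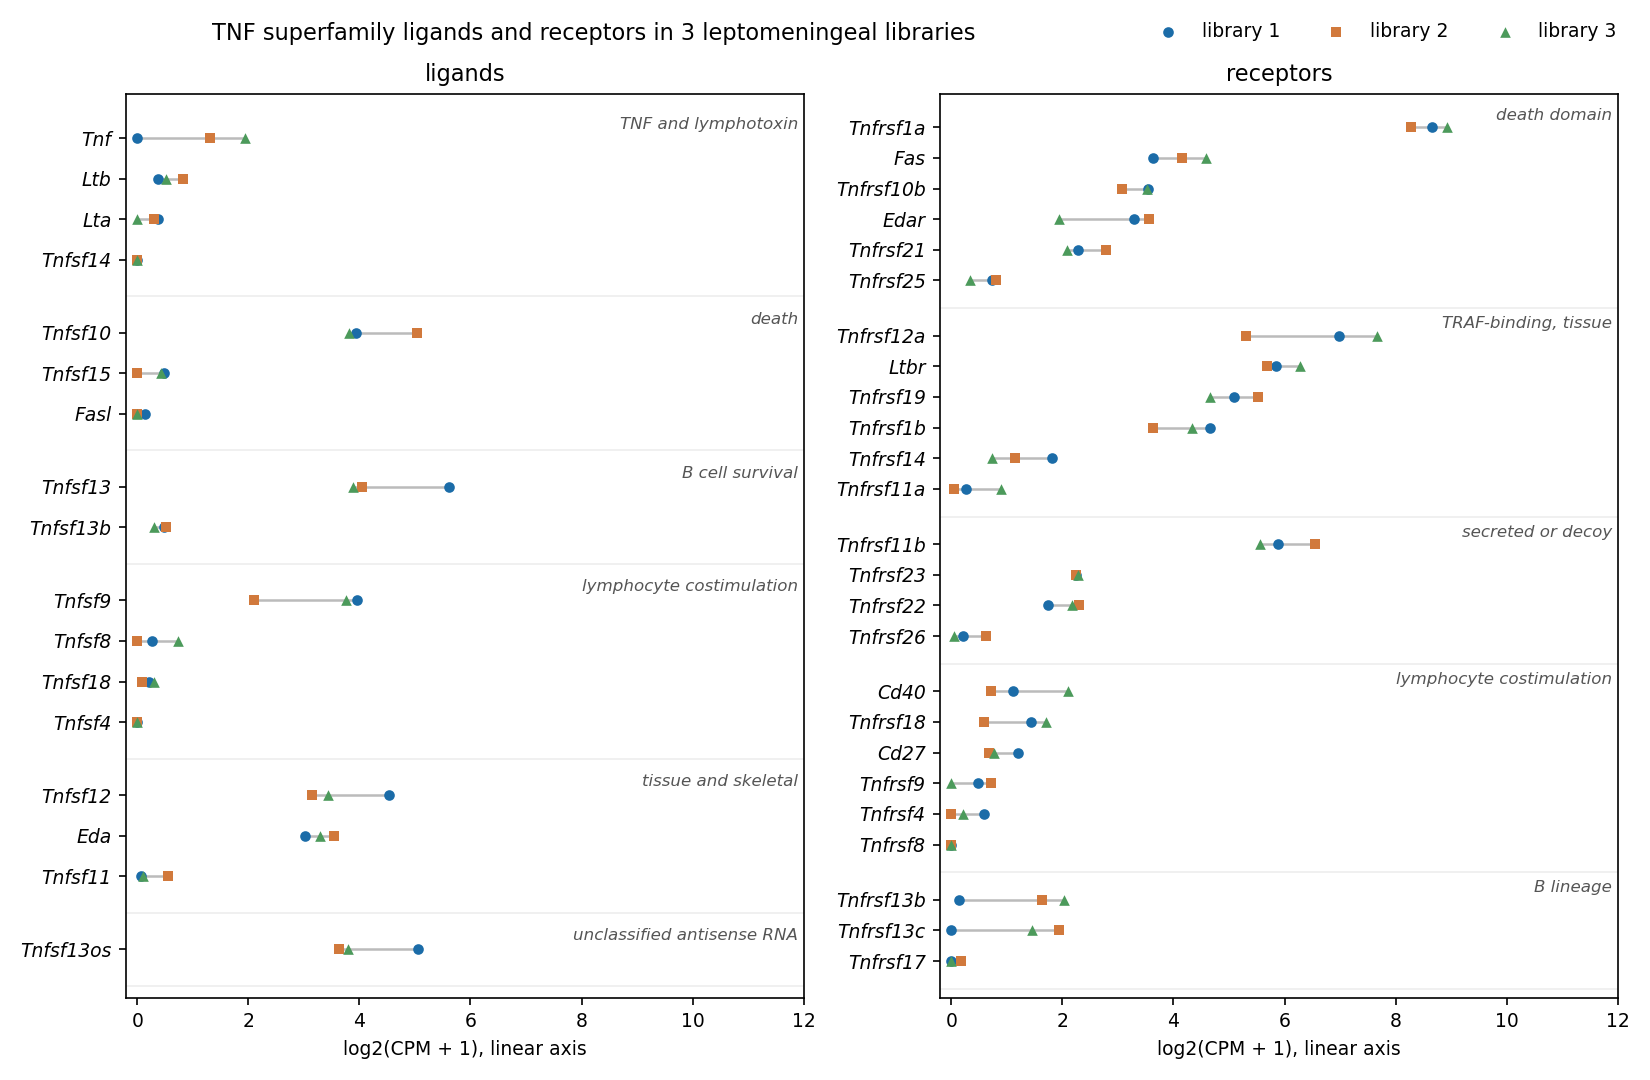
Level of every member in each library as log2(CPM + 1) on a linear axis, ligands on the left and receptors on the right, grouped by role; each symbol is 1 library and grey lines join the lowest and highest. Tnfrsf1a lies furthest to the right with its 3 libraries close together, Tnfrsf12a spreads from 38.7 to 203 CPM, and most ligands lie near 0.

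Among receptors with a death domain, Tnfrsf1a, the receptor through which soluble TNF and lymphotoxin alpha act on most cells, had the highest level per kilobase of all members. Its level was 402, 309 and 483 CPM in libraries 1, 2 and 3. Per kilobase this was 153.7 ± 33.7 (SD, n = 3), higher than 98.6% of protein-coding genes. The gene lies on chromosome 6 of GRCm38 from 125349362 to 125362484. Tnfrsf1a made up 52.6%, 52.7% and 50.1% of the summed receptor level per kilobase, a share that was nearly the same in the 3 libraries (51.8% ± 1.49, SD, n = 3). Fas, the death receptor for Fas ligand, was at 11.5, 16.7 and 22.9 CPM, lowest in library 1 as counted. Its mean per kilobase was 8.26 ± 2.78 (SD, n = 3), and the ratio of Tnfrsf1a to Fas per kilobase was 27.9, 14.7 and 16.8 in the 3 libraries. Corrected for GC content and length, Fas was at 14.6, 14.5 and 20.8 CPM, with libraries 1 and 2 nearly equal. Tnfrsf10b, the mouse death receptor for TRAIL, was steady at 10.7, 7.43 and 10.5 CPM. Edar, the ectodysplasin receptor of hair, tooth and gland development, was at 8.74, 10.9 and 2.85 CPM, lowest in library 3. Tnfrsf21, also known as death receptor 6, was at 3.89, 5.91 and 3.24 CPM. Tnfrsf25, a death receptor of T cells, averaged 0.555 CPM and was the only death-domain member under 1 CPM.

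Of the receptors that bind TRAF adaptors and are used in tissue cells, Tnfrsf12a, the TWEAK receptor also called Fn14, had the highest mean level per kilobase and a wide spread. It was at 125.2, 38.7 and 203 CPM in libraries 1, 2 and 3, so the highest library had a level several times that of the lowest. Its mean per kilobase was 63.3 ± 42.5 (SD, n = 3), and its exons lie on the minus strand of chromosome 17 between 23675445 and 23677468. The edgeR goodness-of-fit test asks whether a gene varied between libraries more than genes of like abundance, and for Tnfrsf12a its Benjamini-Hochberg adjusted p was 0.128 over all 14409 genes. In the same edgeR test the adjusted p was 0.0192 once GC content and length were corrected for and 3.60879e-05 without library 1, whereas it was 0.999608 without library 2 and 0.717 without library 3. The summed mural markers had the same order of libraries as Tnfrsf12a, highest in library 3 and lowest in library 2. They were not the only marker list with that order: the list that is not reported here shared it. The part of either in the level of Tnfrsf12a was not tested.

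Ltbr, the lymphotoxin beta receptor, which stromal cells of lymphoid organs are known to use, was at 56.2, 50.7 and 77.1 CPM. It kept a nearly fixed relation to Tnfrsf1a, its neighbour on chromosome 6, with Tnfrsf1a 6.49, 5.54 and 5.70 times higher per kilobase in libraries 1, 2 and 3. Tnfrsf19, a receptor also called TROY, was at 32.9, 45.2 and 24.2 CPM. Tnfrsf1b, the second TNF receptor, which is best known from immune and endothelial cells, was at 24.1, 11.3 and 19.1 CPM. Per kilobase, Tnfrsf1a exceeded Tnfrsf1b 24.6, 40.2 and 37.2 times, or 34.0 ± 8.31 (SD, n = 3), so the ranges of the TNF receptors did not overlap. Tnfrsf14, the herpesvirus entry mediator that binds LIGHT, was at 2.53, 1.21 and 0.656 CPM. Tnfrsf11a, the receptor RANK of osteoclast precursors, averaged 0.361 CPM.

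The secreted and decoy receptors were led by Tnfrsf11b, osteoprotegerin, a secreted protein that captures RANK ligand and TRAIL. It was at 57.9, 92.3 and 46.0 CPM in libraries 1, 2 and 3, highest in library 2, with a mean of 23.2 ± 8.53 CPM per kilobase (SD, n = 3). Corrected for GC content and length, it was at 80.9, 74.4 and 40.8 CPM, with library 1 the highest. RANK itself was low in the same libraries, and RANK ligand, Tnfsf11, averaged 0.199 CPM. Tnfrsf23 and Tnfrsf22, TRAIL-binding mouse receptors that lack a working death domain, were at 3.74, 3.73 and 3.86 CPM and at 2.32, 3.93 and 3.51 CPM. Tnfrsf23 therefore had the narrowest spread of the 24 members at or above 1 CPM. Tnfrsf26, their neighbour on chromosome 7, averaged 0.243 CPM. These 3 genes lie within 78.2 kb and are related in sequence, so the counts of each are uncertain where reads could fit more than 1 of them.

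**Figure D2:**
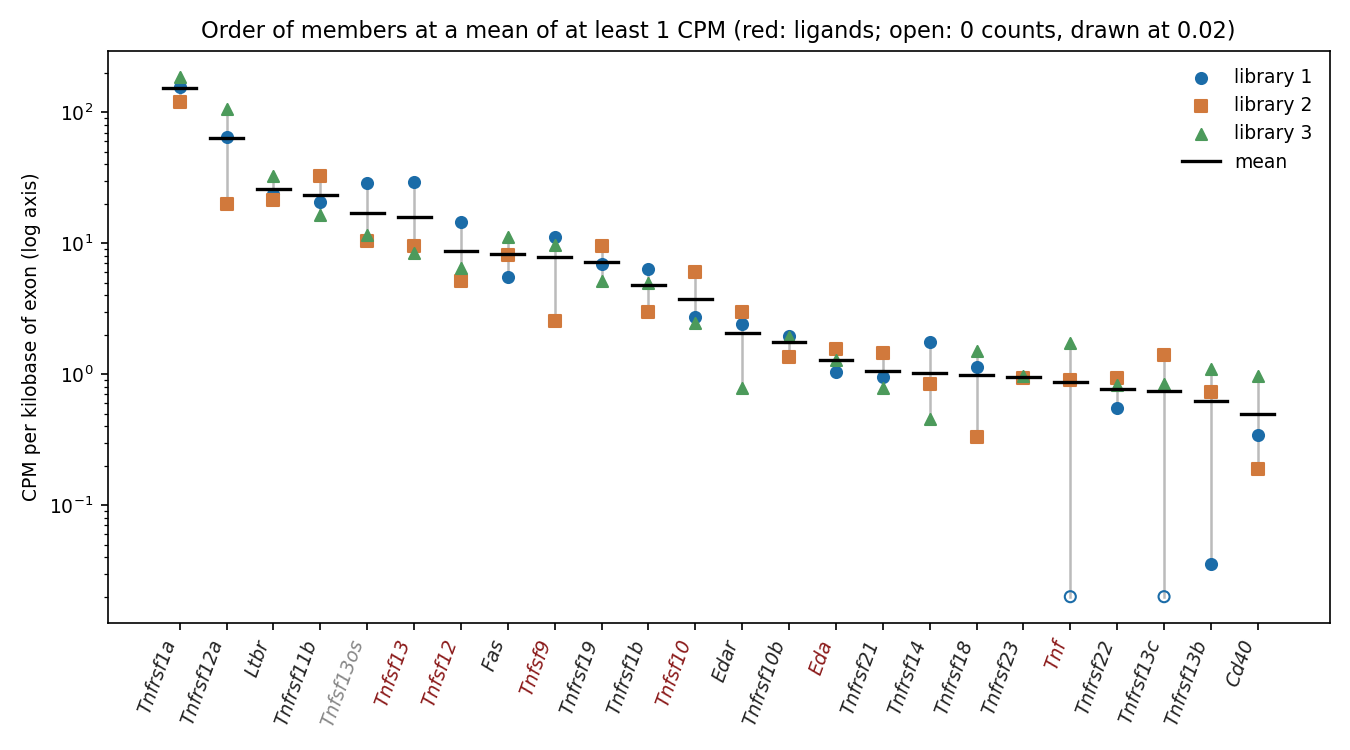
Members at or above 1 CPM in the order of their mean CPM per kilobase of exon, on a log axis, with 1 symbol per library, black bars for means and open symbols for 0 counts, drawn at 0.02. Only the first step, from Tnfrsf1a to Tnfrsf12a, separates the libraries of neighbouring genes, at 119.3 against 105.0 CPM per kilobase, and per kilobase of the longest transcript these ranges overlap. By that length, which is not drawn, Tnfrsf12a and Ltbr are apart.

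In the order of mean levels per kilobase, Tnfrsf1a and Tnfrsf12a were followed by Ltbr at 26.1, Tnfrsf11b at 23.2, Tnfsf13os at 17 and Tnfsf13 at 15.8. Below these came Tnfsf12 at 8.73, Fas at 8.26, Tnfsf9 at 7.84, Tnfrsf19 at 7.2, Tnfrsf1b at 4.76 and Tnfsf10 at 3.74. The lowest library of Tnfrsf1a, at 119.3 CPM per kilobase, lay above the highest of Tnfrsf12a, at 105.0. That separation depended on the length used: per kilobase of the longest transcript, Tnfrsf12a reached 206.1 in library 3 while Tnfrsf1a was at 143.4 in library 2, so their ranges overlapped. Per kilobase of exon, every later pair of neighbours among members at or above 1 CPM overlapped in range, so their order is not fixed beyond the spread between libraries. Per kilobase of the longest transcript, Tnfrsf12a and Ltbr were apart instead, at a lowest of 39.4 against a highest of 36.6. Tnfrsf1a, Tnfrsf12a and Ltbr together made up 80.3% ± 8.28 (SD, n = 3) of the summed receptor level per kilobase.

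Ligands were lower than receptors in sum. Summed per kilobase, receptors stood at 294.7, 226.6 and 373 CPM per kilobase and ligands at 59.8, 26.6 and 30.8, which gave a receptor to ligand ratio of 4.93, 8.51 and 12.1. The mean ratio was 8.51 ± 3.59 (SD, n = 3), and 4.13 ± 1.86 without Tnfrsf1a. Receptors outweighed ligands in each of the libraries in both sums. Tnfsf13 and Tnfsf12 made up 58.9% ± 13.1 (SD, n = 3) of the ligand sum, and their counts are uncertain, as described below.

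The ligand with the highest mean level per kilobase was Tnfsf13, or APRIL, a survival factor for plasma cells and B cells, although in library 3 Tnfsf9 lay above it (9.71 against 8.43 CPM per kilobase). It was at 48.1, 15.5 and 13.8 CPM in libraries 1, 2 and 3, so library 1 stood above the others, and its edgeR goodness-of-fit p was 0.014 unadjusted and 0.415 after Benjamini-Hochberg adjustment. Tnfsf12, or TWEAK, the ligand of Tnfrsf12a, was at 22.1, 7.83 and 9.76 CPM with the same library highest. The antisense Tnfsf13os was at 32.1, 11.5 and 12.8 CPM, again highest in library 1. These 3 genes lie within 13.7 kb of chromosome 11, between 69682138 and 69695849. Their exons are not separate: 60.05% of the exon bases of Tnfsf13 and 48.25% of those of Tnfsf12 are shared on the same strand with Tnfsfm13, an annotated readthrough gene counted at 8.49, 4.47 and 3.35 CPM. Tnfsf13os shares 19.93% of its exon bases with the opposite strand of Tnfsf13, and the strand setting of the counting is not given in the sources used here. How the counts divide among these genes is therefore uncertain.

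Tnfsf10, or TRAIL, which triggers death receptor signalling, was at 14.3, 31.7 and 13.0 CPM, highest in library 2. Tnfsf9, the ligand of the T cell costimulatory receptor Tnfrsf9, was at 14.5, 3.29 and 12.5 CPM, lowest in library 2. Tnfsf9 shares 14.88% of its exon bases with Gm11110 on the opposite strand, which averaged 0.379 CPM. Eda, ectodysplasin, was even between libraries at 7.07, 10.6 and 8.79 CPM. Tnf itself had 0, 44 and 73 counts, or 0, 1.48 and 2.81 CPM. The other 10 ligands averaged from 0 to 0.50 CPM. They were, besides Ltb and Tnfsf11, the lymphotoxin gene Lta, Tnfsf14, Fasl, Tnfsf15, Tnfsf13b, Tnfsf8, Tnfsf18 and Tnfsf4. Tnfsf14 and Tnfsf4 had no count in any library, where a count of 0 allows up to 0.152, 0.101 and 0.116 CPM (3 counts, counting error only). Fasl had 2 counts in library 1 and 0 elsewhere.

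**Figure D3:**
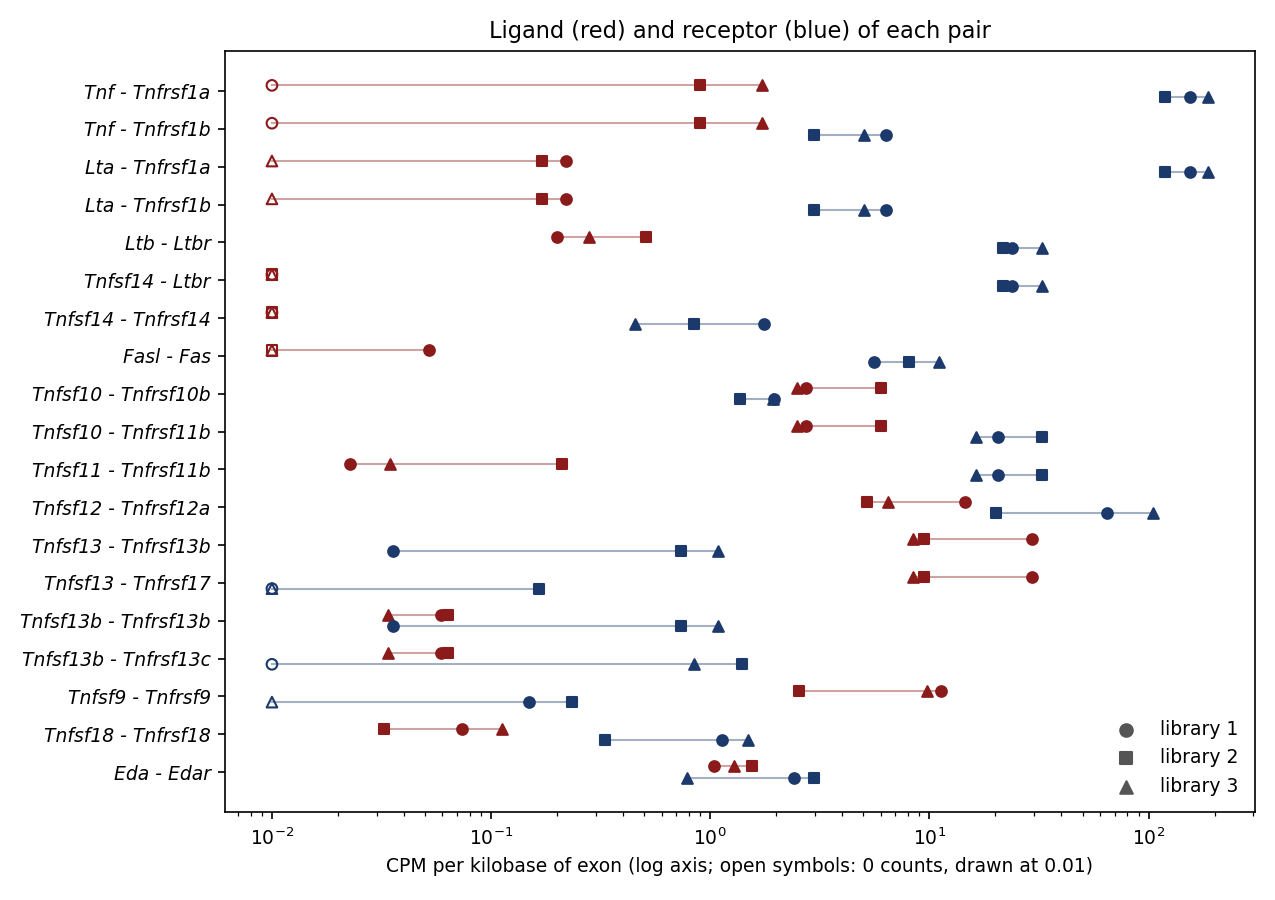
Ligand (red) and receptor (blue) levels of every pair with at least 1 gene at a mean of 1 CPM or more, as CPM per kilobase of exon on a log axis, with 1 symbol per library and open symbols for 0 counts, drawn at 0.01. Tnfrsf1a, Tnfrsf1b, Tnfrsf11b and Tnfrsf12a lie above Tnf, Tnfsf10 and Tnfsf12 in every library, Tnfsf10 above Tnfrsf10b (in library 2 alone by the longest transcript) and Tnfsf13 above Tnfrsf13b, and Eda and Edar change order.

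Known ligand and receptor partners were then set side by side within each library. Of 24 pairs, 7 had both genes at or above 1 CPM, 10 had only the receptor, 2 only the ligand and 5 neither. For TWEAK, the receptor exceeded the ligand in every library, with a ratio of Tnfrsf12a to Tnfsf12 per kilobase of 4.45, 3.88 and 16.3, or 8.27, 7.22 and 30.3 by the longest transcript. The ratios for TWEAK and APRIL rest on Tnfsf12 and Tnfsf13, whose counts are uncertain because of exon bases shared with Tnfsfm13. For TRAIL, the secreted Tnfrsf11b exceeded Tnfsf10 by 7.54, 5.44 and 6.59 times, or 6.52 ± 1.05 (SD, n = 3), the smallest relative spread among the 5 such pairs with counts in every library. The death receptor for the same ligand lay below it, at a ratio of Tnfrsf10b to Tnfsf10 of 0.718, 0.226 and 0.780. Per kilobase of the longest transcript the same ratio was 1.17, 0.368 and 1.27, so its direction turned in libraries 1 and 3. For Tnf, the ratio of Tnfrsf1a to ligand was 132.3 in library 2 and 108.6 in library 3, and that of Tnfrsf1b was 3.29 and 2.92, while library 1 had no Tnf count. For ectodysplasin, Edar exceeded Eda in libraries 1 and 2, at 2.32 and 1.92, but not in library 3, at 0.609. For APRIL, Tnfsf13 lay above Tnfrsf13b in every library, with a ratio of receptor to ligand of 0.00121, 0.0778 and 0.129. The pairs with only the receptor at or above 1 CPM included Ltb with Ltbr, Fasl with Fas and Tnfsf11 with Tnfrsf11b. The pairs with only the ligand were Tnfsf13 with Tnfrsf17 and Tnfsf9 with Tnfrsf9.

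The 3 receptors of the B lineage list, Tnfrsf13c, Tnfrsf13b and Tnfrsf17, had at most 2 counts each in library 1. Cd40, which B cells also use, was not in that list and had 23, 19 and 86 counts, lowest in library 2. Tnfrsf13c, the BAFF receptor of mature B cells, had 0, 85 and 45 counts, or 0, 2.86 and 1.74 CPM. Tnfrsf13b, the receptor TACI, had 2, 62 and 80 counts, or 0.101, 2.08 and 3.08 CPM. Tnfrsf17, the plasma cell receptor BCMA, had 0, 4 and 0 counts. Against the limit of 3 counts in library 1, Tnfrsf13c was at least 15.4-fold higher and Tnf at least 13.9-fold higher in libraries 2 and 3 together. Tnfrsf13b was 25.2-fold higher there (95% interval 6.86 to 210.4, counting error only). Neither Tnf nor any of the 3 B lineage receptors passed the filter on low counts, so none of them entered the test. With the genes tested without that filter, the adjusted p of the edgeR goodness-of-fit test was 0.124 for Tnfrsf13c, 0.460 for Tnfrsf13b and 0.136 for Tnf.

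The B cell markers in sum were also lowest in library 1, with Cd79a at 1.21, 20.1 and 20.7 CPM and Ms4a1 and Blnk at 0 there. Of the B cell markers, 2 of 3 that entered the edgeR test were called variable, and of the macrophage and microglia markers 5 of 6, beside 0.437% of all 14409 genes. The low level in library 1 was not particular to immune markers: all 5 choroid plexus markers were lowest there, and 3 of them were called. The part of any of these cell types in the levels of Tnf, Tnfrsf13b and Tnfrsf13c was not tested. In bulk RNA, fewer cells of a type and less RNA per cell cannot be told apart.

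The costimulatory receptors of lymphocytes and antigen-presenting cells were low, and the 3 that passed the filter, Cd40, Tnfrsf18 and Cd27, were all lowest in library 2, beside 32.3% of all genes. Cd40, which receives T cell help on B cells and macrophages, was at 1.16, 0.638 and 3.32 CPM. Tnfrsf18, or GITR, was at 1.72, 0.504 and 2.27 CPM, and 27.17% of its exon bases are shared with the antisense gene Gm16008, at 1.41, 1.31 and 1.0 CPM. Cd27 averaged 0.871 CPM with 26, 18 and 18 counts, the most of any member below 1 CPM. Its counts were equal in libraries 2 and 3, so only the scaling placed library 2 lowest, at 0.605 against 0.694 CPM. Tnfrsf9 averaged 0.348 CPM, Tnfrsf4 averaged 0.220 CPM and Tnfrsf8 had no count. The summed B cell, macrophage, choroid plexus, fibroblast and neutrophil markers were lowest in library 1. Those of T and NK cells (5.20, 4.03 and 5.55 CPM), endothelial, mural and arachnoid barrier cells were lowest in library 2. The part of any of these cells in the levels of the costimulatory receptors was not tested.

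**Figure D4:**
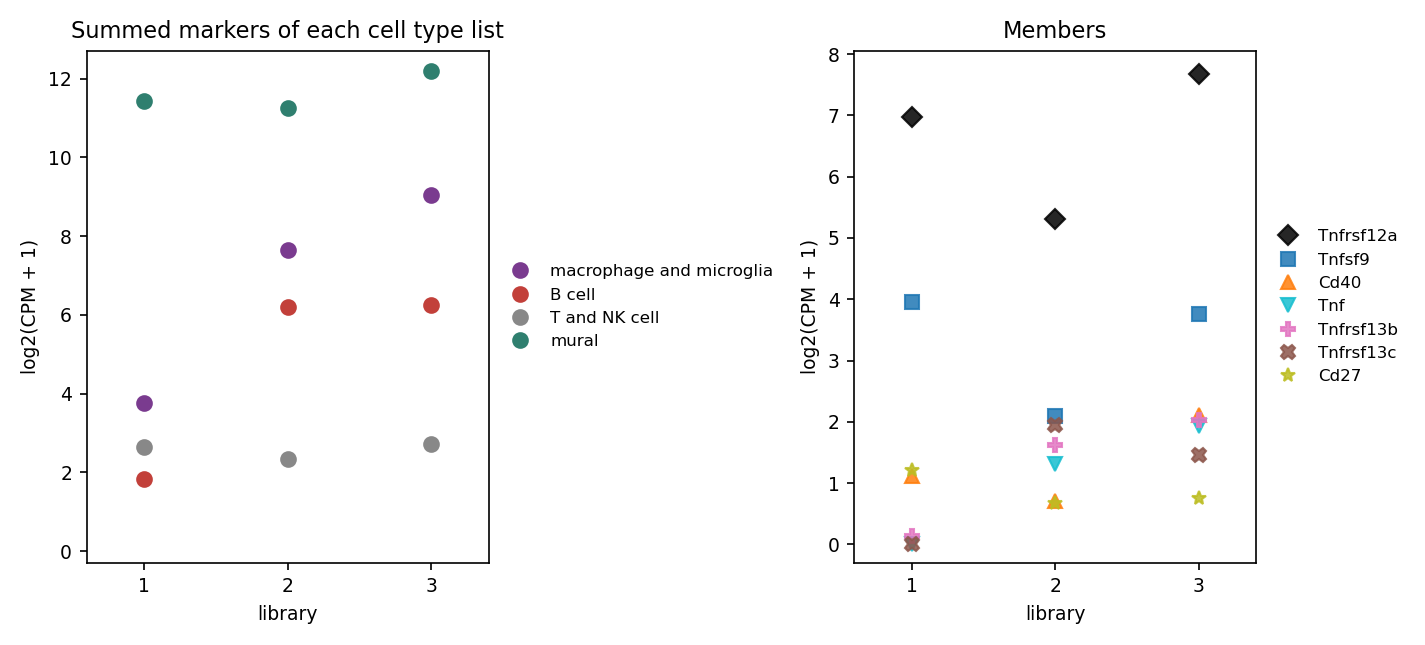
Summed markers of 4 cell types (left) and 7 members (right) in each library, as log2(CPM + 1) on linear axes of different range; colours do not link the panels. Macrophage and B cell markers are lowest in library 1, as are Tnf, Tnfrsf13b and Tnfrsf13c, while Cd40, Cd27, Tnfsf9 and Tnfrsf12a are not. Choroid plexus markers, which are not drawn, were lowest in library 1 too.

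Whether any member varied between libraries was then tested across the table. The edgeR goodness-of-fit test at a Benjamini-Hochberg adjusted p below 0.05 called 0 of the 22 members that passed the filter, beside 0.437% of all 14409 genes. At an unadjusted p below 0.05 there were 4 members, Tnfrsf12a, Tnfsf13, Tnfsf9 and Cd40, beside 7.04% of all genes. With simulated counts of the same spread, the test recovered 106 of 200 genes changed 8-fold in 1 library, so differences of that size could be missed. Among the 22 members, library 2 was the lowest of the 3 for 12, beside 32.3% of all genes, library 1 for 3, beside 40.4%, and library 3 for 7, beside 27.2%. It was the highest for 7, beside 32.8%, as was library 3, beside 27.6%, and library 1 was the highest for 8, beside 39.6%. The 12 with library 2 lowest included Tnfrsf1a, Tnfrsf12a, Ltbr, Tnfrsf1b, Tnfsf12 and Tnfsf9. All of these ranks are without correction for GC content and length. With it, Tnfrsf1a (329, 359 and 508 CPM) and Ltbr (44.4, 61.7 and 80.3 CPM) were lowest in library 1. Tnfrsf12a, Tnfrsf1b, Tnfsf12 and Tnfsf9 stayed lowest in library 2. Tnf, Tnfrsf13b and Tnfrsf13c, all lowest in library 1, averaged above 1 CPM but did not pass the filter. They are therefore not in these counts, and genes like them are not in the shares of all genes.

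Library 1 also differed from the others with base composition. Over 14375 genes, the log2 difference of library 1 from the mean of libraries 2 and 3 had a Spearman correlation of 0.608 with the GC content of the longest transcript, a description across genes that share these libraries. The median difference was -1.06 in the lowest of 10 equal classes of GC content (median 39.9%) and 0.36 in the highest class (59.4%). Over the 22 members that passed the filter the Spearman correlation was 0.581. A loess correction for GC content and length lowered the difference of Tnfsf13 from 1.65 to 1.26, that of Tnfsf12 from 1.24 to 0.70 and that of Tnfsf13os from 1.34 to 0.91, all on the log2(CPM + 1) scale and still above 0. For Tnfrsf12a the difference went from 0.49 to -0.02, and for Tnfrsf1a from 0.06 to -0.37. For Tnfrsf11b, a gene of low GC content at 42.9%, it went from -0.17 to 0.54, and for Tnfsf10 from -0.48 to 0.29. The direction in which library 1 differed thus depended on the correction for these 4 genes, and also for Tnfrsf19 and Tnfrsf23, which lay near 0 under both.

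**Figure D5:**
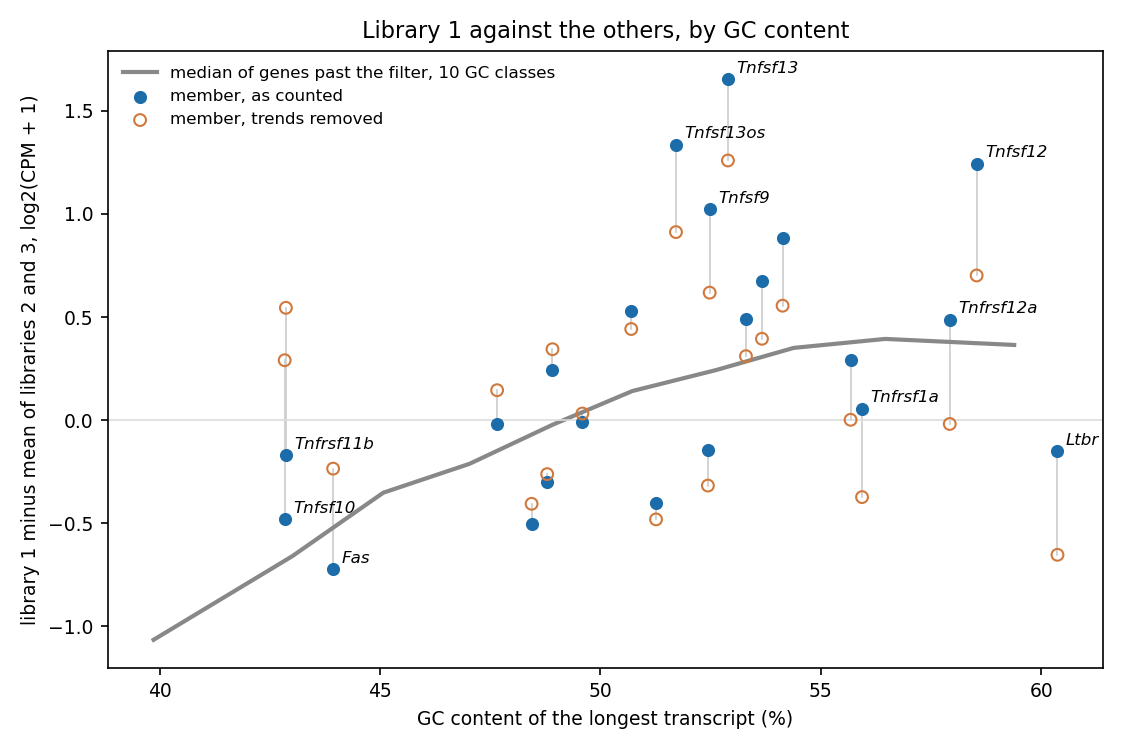
Log2 difference of library 1 from the mean of libraries 2 and 3 against GC content of the longest transcript in percent; filled points are members past the filter as counted, open points the same after correction for GC content and length, and the line joins the medians of 10 equal classes of all genes. The medians go from -1.06 in the lowest class to 0.36 in the highest, and Tnfsf13 lies above the line.

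Neighbouring members had like levels in some clusters and unlike levels in others, given here as mean CPM per kilobase of exon. Gaps of at most 500 kb joined 23 members into 9 clusters, and 9 members lay on chromosome 4 and 7 on chromosome 17. On chromosome 6, Cd27, Ltbr and Tnfrsf1a lie within 129.9 kb and averaged 0.374, 26.1 and 153.7. On chromosome 17, Ltb, Tnf and Lta lie within 10.9 kb and averaged 0.33, 0.873 and 0.13. Tnfsf9 and Tnfsf14, 88.9 kb from end to end on the same chromosome, averaged 7.84 and 0. On chromosome 4, Tnfrsf1b and Tnfrsf8 averaged 4.76 and 0. The cluster of Tnfsf4, Tnfsf18 and Fasl on chromosome 1 spans 393.1 kb and held no member above 0.0726. Tnfsf15 and Tnfsf8 on chromosome 4 averaged 0.0748 and 0.0751, and Tnfrsf26, Tnfrsf22 and Tnfrsf23 on chromosome 7 averaged 0.0754, 0.772 and 0.953.

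Of 58 genes of the pathway, its targets and related receptors, in 8 lists, 55 passed the filter and 0 were called variable by the edgeR goodness-of-fit test, beside 0.437% of all genes. At an unadjusted p below 0.05 there were 2, Xiap at 8.34, 38.8 and 22.4 CPM and Adam10 at 25.7, 93.2 and 66.5 CPM. Both were lowest in library 1 as counted, but for Xiap this depended on base composition: corrected for GC content and length it was at 18.1, 22.9 and 17.4 CPM, and Adam10 at 39.1, 70.9 and 57.4 CPM. The genes named from each list are those with the highest CPM, which is not divided by length, so they are not ranked against each other. Of the TRAF and death-domain adaptors, 10 of 11 passed, and Traf7 (122.3 ± 28.4 CPM; SD, n = 3 here and below), Traf1 (44.9 ± 20.2 CPM) and Traf2 (43.6 ± 6.88 CPM) had the highest CPM. Edaradd, the adaptor of Edar, did not pass and averaged 0.354 CPM. All 9 genes of death execution and its brakes passed, among them Cflar (103.0 ± 8.17 CPM), which blocks caspase-8 activation at death receptors, Birc2 (59.8 ± 11.2 CPM) and Casp8 (32.4 ± 11.4 CPM).

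All 8 genes of the canonical NF-kB arm passed, among them the inhibitor Nfkbia (367.6 ± 120.2 CPM), Rela (117.4 ± 33.1 CPM) and Ikbkb (58.5 ± 12.6 CPM). All 4 of the non-canonical arm, which Ltbr and Tnfrsf12a are known to use, passed: Nfkb2 at 15.7 ± 7.10 CPM, Chuk at 10.5 ± 5.42 CPM and Map3k14 at 8.24 ± 1.10 CPM. The 7 genes of ubiquitin editing and feedback passed, among them Rbck1 (124.1 ± 8.87 CPM), Tnip1 (70.2 ± 16.5 CPM) and Cyld (31.0 ± 11 CPM). All 5 genes of ligand and receptor shedding passed as well. Timp3, an inhibitor of the TNF-shedding protease Adam17, was at 1207 ± 95.7 CPM, Adam17 at 84.7 ± 19.0 CPM and Rhbdf1, which helps to mature that protease, at 63.0 ± 20.4 CPM.

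All 10 known TNF-inducible genes passed, with library 1 the lowest for 5 and the highest for 4 of them. The adhesion molecule Icam1 was at 981, 401 and 415.5 CPM in libraries 1, 2 and 3. Vcam1 was at 108.4, 139.2 and 128.4 CPM, or 190.5, 94.4 and 107.8 CPM corrected for GC content and length, which turned its direction in library 1, and the chemokine Cxcl10 at 101.7, 57.3 and 42.8 CPM. The spread of these 3 genes between libraries gave no call in the edgeR goodness-of-fit test, with an adjusted p of 0.727 for Icam1. Of 4 related genes that the naming rule left out, Relt was at 12.9 ± 1.11 CPM and Ngfr, the neurotrophin receptor of this family, at 1.97 ± 0.601 CPM. Eda2r, another receptor of ectodysplasin, averaged 0.587 CPM and the ligand of Cd27, Cd70, 0.0168 CPM.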

How the data were processed

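RNA of sorted leptomeningeal cells was amplified from 2 ng and sequenced in 3 libraries, per the labels' protocols. The deposited table holds raw read counts per gene, made by the authors with HTSeq 0.5.3 on mm10, per the submitters' processing notes, which also name DESeq2 1.22.1. The labels speak of normalized counts, but the deposited values are whole-number counts. The aligner, annotation release and strand setting are not given in the sources used here. Reads without a gene (45.6%, 39.1% and 39.6% of the table in libraries 1, 2 and 3) and ambiguous reads (1.39%, 1.35% and 1.31%) were left out of library sizes.

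Counts were scaled by TMM and filtered with filterByExpr (minimum count 10) in edgeR 4.0.16 (R 4.3.3). With 1 group there is no contrast, so variation was tested by edgeR's goodness of fit of an intercept-only model at the trended dispersion (2 degrees of freedom), adjusted by Benjamini-Hochberg over all 14409 genes, threshold 0.05. Log2 values used a pseudocount of 1. On simulated data with 0 changed genes the test made 0 calls, and with 200 changed 8-fold it made 1 false call. The simulated counts were drawn at the trended dispersion that the test assumes, without a GC trend. Few false calls therefore followed from the setting and do not give the error rate in these libraries. Exon lengths (union of exons), GC content and positions came from GENCODE M21 (GRCm38), which held all 42 members, and promoters from RefSeq. Alternatives used DESeq2 1.42.0 size factors, plain totals, other filters, a common dispersion, loess removal of GC and length trends (span 0.5), other lengths, and each library left out. Tables and figures used Python 3.11.15, pandas 2.3.3, numpy 2.4.6 and matplotlib 3.10.9.

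Named were every member at or above 1 CPM with each library's value, the others by level, the 3 most abundant genes of each pathway list, the 2 most abundant of each marker list (1 list is not reported here), and every gene called variable among members and pathway lists. Gm16008, Gm11110, Tnfsfm13, Edaradd, Cd70, Xiap and Adam10 were added after their values were seen. The members, lists and pairs were chosen with earlier results of these data known. The protocol names no molecular identifiers, so amplified copies are counted as separate reads, and intervals and floors cover counting error alone.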

Additional observations from a re-analysis of the deposited data

How the results depend on the processing

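The count of members called variable was 0 under TMM, DESeq2 size factors, plain totals, both other filters and a common dispersion. It became 1, Tnfrsf12a, once GC content and length were corrected for, and it ranged from 0 to 1 when each library was left out, the 1 being without library 1. The number of members past the filter was 22 and became 39 with no filter on low counts, by construction. The receptor to ligand ratio of 8.51 became 4.13 without Tnfrsf1a, also by construction, and ranged from 6.72 to 10.3 when each library was left out. The number at or above 1 CPM was 24, and 22 to 23 with a library left out. The count of all genes called, 63, was 134 with no filter, 181 with a mean count of at least 10 and 111 with that correction. It was 12 to 28 with a library left out (27, 28 and 12 without libraries 1, 2 and 3). The cause of these changes was not tested. Levels of single members moved beyond 1 SD in 2 of 168 checks, both of Tnfrsf23, whose SD is very small. Few moves were possible by construction, since each check used the same libraries that gave the SD. The count of moves is therefore no measure of robustness. Dividing by the longest transcript raised Tnfrsf12a from 63.3 to 124.2 CPM per kilobase, and its range then overlapped that of Tnfrsf1a and no longer that of Ltbr. No paired analysis was possible because the study has 1 group. With 3 libraries, levels below the limit of 3 counts could not be told from 0.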
